A study of Mus musculus with 6 samples.

Results

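Binding of the transcription factor PU.1 was described at 6 stretches of the mouse genome that hold 8 genes of the neutrophil granule and cytosol programme: Mpo, Elane, Prtn3, Ctsg, Cebpe, Lcn2, S100a8 and S100a9. The members were all peaks, in 4 ChIP-seq libraries and 2 merged lists, that overlapped fixed windows of 50 to 70 kb around these genes in build mm9, 350 kb in all. Elane shares a window with Prtn3, and S100a8 shares one with S100a9, so their peaks were not told apart. After peaks of the 4 libraries that overlapped by at least 1 bp had been joined into regions, the windows held 48 of the 82810 regions of the series. The windows were set by position, with earlier results of these data known.

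All libraries came from iBN cells, a mouse line labelled as a granulocyte-macrophage progenitor that carries an inducible PU.1 system and was kept in medium with GM-CSF at 1 ng per ml. In the induced group (2 libraries) the system had been switched on by doxycycline at 1000 ng per ml for 72 hours. The uninduced group (2 libraries) carried the same system and had not been induced. The sources used here give no genotype of the line beyond this system and do not say that replicates were separate cultures. Differences between replicates may therefore be technical only. No expression was measured in these libraries, so the labelled cell type could not be checked against its markers.

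PU.1 is an ETS-family factor that binds purine-rich sites built around the letters GGAA and directs the choice of progenitors between neutrophil and macrophage fates. Neutrophil granule proteins are made in waves. Genes of the primary granules, such as Mpo, Elane, Prtn3 and Ctsg, are switched on early, in promyelocytes. Later genes such as Lcn2 need C/EBPε, the product of Cebpe, and S100a8 with S100a9 encode the abundant cytosolic protein calprotectin of neutrophils and monocytes.

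The RefSeq promoters used here covered 7 of the 8 members, all but Cebpe. Stretches are shown for the 5 that held both longer PU.1 motifs searched for. Of these, 4 carry the same 8 letters that join both motifs, and in Ctsg the motifs lie apart. The 250 bases before each gene start were searched on both strands. The letters GAGGAAG were found in 6 of the 7 promoters, against 10.6% of all 32851 promoters in the table, and GGAAGT in 6 of the 7, against 19.7%. S100a9 lacked GAGGAAG, and Lcn2 lacked GGAAGT. Both motifs overlap in GAGGAAGT, a string added to the search after the promoters had been seen; it was present in Mpo, Elane, Prtn3 and S100a8 and in 2.44% of all promoters. The shorter core GGAA was found in all 7 promoters, but also in 93.4% of all promoters. The C/EBP letters TTGCNNAA were found in Lcn2 and S100a9 and in 9.56% of all promoters. The stretches are given 5′ to 3′ on the gene's own strand, in build GRCm38.p6, with both longer motifs (read on either strand) in capitals. In order they are chr11:87793534-87793597 (plus strand), chr10:79886197-79886264 (plus), chr10:79879542-79879609 (plus), chr3:90668869-90668936 (plus) and chr14:56102744-56102820 (minus).
Mpo: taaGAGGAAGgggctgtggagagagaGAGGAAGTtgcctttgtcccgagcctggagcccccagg
Elane: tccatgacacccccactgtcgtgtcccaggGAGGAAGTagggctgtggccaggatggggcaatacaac
Prtn3: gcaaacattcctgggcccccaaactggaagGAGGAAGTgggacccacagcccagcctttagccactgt
S100a8: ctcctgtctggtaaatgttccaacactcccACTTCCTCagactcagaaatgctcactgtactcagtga
Ctsg: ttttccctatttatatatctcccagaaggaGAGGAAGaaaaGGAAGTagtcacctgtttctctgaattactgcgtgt

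In S100a8 the motif is on the opposite strand and is read there as ACTTCCTC. A match of letters is a description and not a binding site. The peaks are in mm9, another build, so which of them cover these promoters was not analysed here, and peaks are placed by mm9 position only.

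After induction more of every window lay under PU.1 peaks. The windows together held 47 and 45 peaks in induced replicates 1 and 2, and 25 and 31 in uninduced replicates 1 and 2. Peaks covered 73907 and 61633 bp of the windows after induction and 29327 and 34637 bp without it. The mean covered length was 67770 ± 8679 bp (SD, n = 2) against 31982 ± 3755 bp (n = 2), a ratio of 2.12. Over all windows the groups did not overlap in either measure, and the exact permutation test, two-sided, gave p = 0.333 for both, the smallest value that 2 libraries against 2 allow. The whole lists moved in the same direction, with a ratio of 1.94 for covered length and 1.67 for peak number, against 1.64 for peak number in the windows. By window the ratio for covered length was below 1.94 at Mpo (1.34), Elane and Prtn3 (1.67) and Ctsg (1.81). It was above 1.94 at Cebpe (2.02), Lcn2 (2.17) and S100a8 and S100a9 (2.87). Without the S100a8 and S100a9 window the mean covered length was 42576 bp after induction against 23210.5 bp without it. In each of the 6 windows both induced libraries had more covered length than both uninduced libraries, which also held for 54.6% of the 26607 tiles of 60 kb with a region anywhere in the genome. The tiles are a sparser background, with a median of 2 regions against 3 to 13 in the windows. A tile that lacks a peak in either induced library cannot meet this condition. The read depth behind the lists is unknown, and a site bound in more cells cannot be told apart from a site bound more firmly in each cell.

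**Figure D1:**
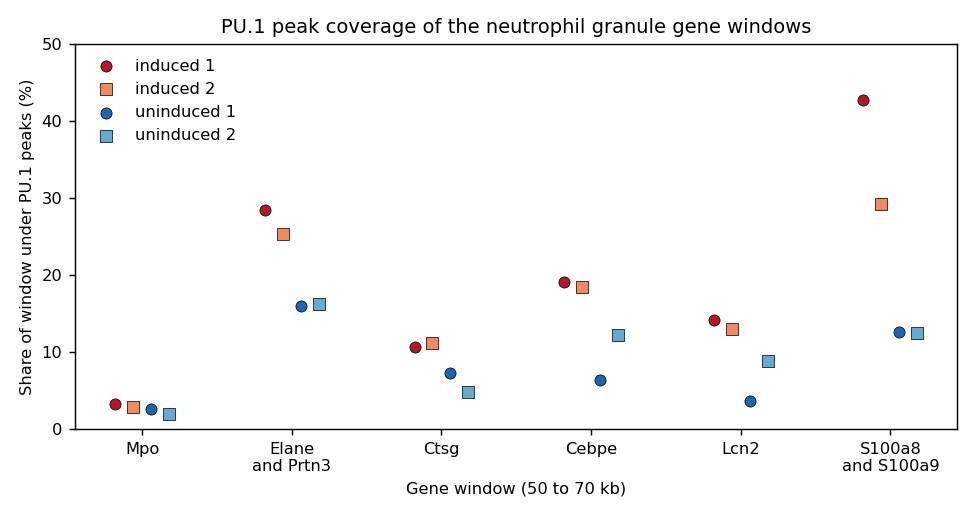
Share of each gene window (in percent, vertical axis) that lay under PU.1 peaks in each of the 4 libraries; 1 point per library, red for induced and blue for uninduced, circles for replicate 1 and squares for replicate 2. The S100a8 and S100a9 window reached 42.7% and 29.2% in the induced libraries, and the Mpo window stayed at 3.27% or less in all 4.

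Regions bound in every library made up much of the binding at these genes. Of the 48 regions, 20 (41.7%) carried a peak in each of the 4 libraries, and such regions, here termed shared, made up 23.4% of all regions. Regions found in 1 library only made up 12.5% of those in the windows and 28.9% of all. Peaks in the windows also scored higher than the typical peak of their list, as given below. The part of these differences in the shared share was not tested. The shared part was 53.8% of 13 regions at S100a8 and S100a9 and 50% of 12 at Elane and Prtn3. At Cebpe it was 20% of 10 regions and at Lcn2 28.6% of 7. Mpo and Ctsg held only 3 regions each, with 33.3% and 66.7% shared. Gained regions, with peaks in both libraries of induced cells only, numbered 13 (27.1%), against 22.2% of all regions. Lost regions, the reverse of these, numbered 0, against 3.8% of all regions. The gained share was thus near that of the whole series. Without uninduced replicate 2 the windows held 21 gained and 2 lost regions. The shares over all regions were not calculated without that library, so these counts cannot be called particular to the windows. The other 15 regions were mixed, and 8 of them were missing from uninduced replicate 1 alone (16.7% of the regions, against 14.6% of all). Of the gained regions, 6 scored at least 100 in both induced libraries, 46.2% against 42.7% of all gained regions.

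**Figure D2:**
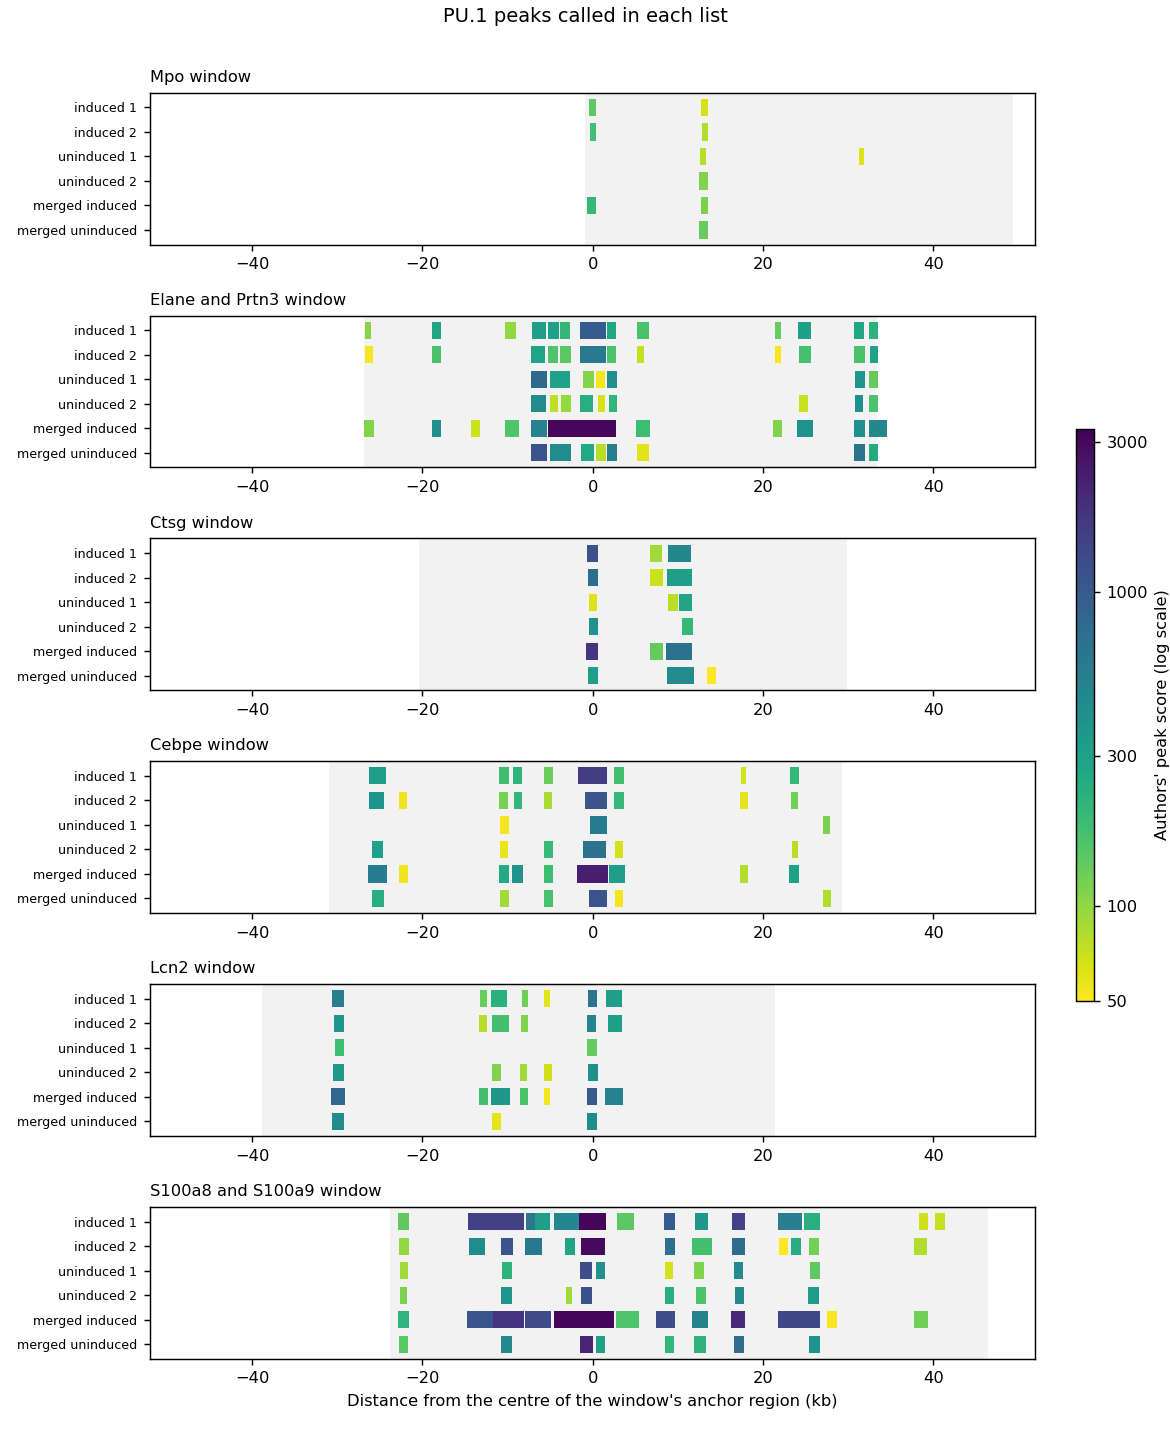
Peaks called in each list across the 6 windows (grey), drawn to scale and coloured by the authors' score on a log scale; the horizontal axis gives the distance in kb from the centre of the window's leading region, whose lower score of the 2 induced libraries is the highest there. The Mpo window held 3 regions, whereas the window of S100a8 and S100a9 held 13 and that of Elane and Prtn3 12.

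Each peak carries a score that the authors deposited, on a scale not given in the sources used here, with a minimum of 50. Scores of different lists have different levels, so shared regions were compared by the percentile of their score among all 19391 shared regions of the same library. The rank shift is the mean percentile of the induced libraries minus that of the uninduced libraries. Over all shared regions it had a median of 0.22 points, and its 5% and 95% quantiles were -40.18 and 39.61.

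Mpo encodes myeloperoxidase, the enzyme of the primary granule that makes hypochlorous acid. Its window (chromosome 11, 87.59 to 87.64 Mb) was the least covered. It held 2 peaks in each induced library, 2 in uninduced replicate 1 and 1 in uninduced replicate 2. The only shared region, at 87603288 to 87604349, scored 65.4 and 82.5 with induction and 78.5 and 110 without, close to the minimum. Its percentiles were 1.62 and 8.64 in induced and 18.6 and 19.4 in uninduced cells, so it ranked lower in both induced libraries, by 13.9 points. Without uninduced replicate 1 the shift was -28.49 points. A gained region at 87590356 to 87591164 scored 141 and 174 in the induced libraries and lay at the very edge of the window. The last region, at 87622056 to 87622627, was found only in uninduced replicate 1, with a score of 62.3. In gene order Mpo stands between Tspoap1 and Lpo, the gene of lactoperoxidase.

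Elane and Prtn3 encode neutrophil elastase and proteinase 3, related serine proteases of the primary granule, and stand side by side in the genome, followed by Cfd, the gene of complement factor D. Their window (chromosome 10, 79.32 to 79.38 Mb) held 13 and 12 peaks in the induced libraries and 7 and 9 in the uninduced ones. Peaks covered 28.4% and 25.4% of it in the induced libraries against 16.0% and 16.3% in the uninduced ones, a ratio of 1.67. Of its 12 regions, 6 (50%) were shared and 4 (33.3%) gained, against 23.4% and 22.2% of all regions. Both induced libraries held 11 of the 12, against 41 of the 48 regions in all windows and 51291 of the 82810 regions of the series.

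Within this window the region with the highest score differed between the conditions. The region at 79339498 to 79341381 scored 809 and 447 in the uninduced libraries, the highest values of the window there, but 315 and 287 in the induced ones. Its percentile was 89.9 and 74.4 in the uninduced and 34.3 and 46.4 in the induced libraries, a shift of -41.8 points. The region at 79377458 to 79378716 scored 369 and 407 in the uninduced and 273 and 166 in the induced libraries, a shift of -43.6 points. Both shifts lay beyond the 5% quantile of all shared regions. The region at 79348402 to 79349549 scored 418 and 212 in the uninduced and 270 and 163 in the induced libraries, a shift of -32.3 points. In the merged lists its shift turned to 13.91, because there a single long induced peak overlaps 3 of the shared regions. One region of the window ranked higher after induction. The region at 79345193 to 79348270 scored 988 and 596 in the induced libraries, where it was the highest of the window, and 109 and 234 in the uninduced ones, a shift of 32.8 points (15.19 without uninduced replicate 1). This region joined 1 peak of each induced library with 2 peaks of each uninduced library. Under the stricter overlap rule given below no shift was obtained for it.

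The remaining shared regions of the Elane and Prtn3 window overlapped between the groups in rank. The region at 79379153 to 79380243 scored 224 and 290 with induction and 135 and 163 without, a shift of -2.01 points. The region at 79341525 to 79344149 scored 301 and 160 with induction and 297 and 96.5 without, a shift of -11.6 points. The latter differed between the uninduced libraries, at a percentile of 68.0 in replicate 1 and 14.9 in replicate 2. Of the gained regions the strongest, at 79327866 to 79328969, scored 283 and 167. The others had lower scores, between 53.2 and 167, and the one at 79351895 to 79353298 had a peak of 60.2 in the authors' merged uninduced list. All 3 had a score under 100 in induced replicate 2.

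Ctsg encodes cathepsin G, another serine protease of the primary granule, and stands beside Gzme, a granzyme gene, and Mcpt8, a mast cell protease gene. Its window (chromosome 14, 56.69 to 56.74 Mb) held only 3 regions, with 3 peaks in each induced library and 3 and 2 in the uninduced ones. Peaks covered 10.7% and 11.2% of it after induction and 7.24% and 4.81% without it. The region at 56709624 to 56710836 scored 1151 and 749 in the induced libraries and 62.8 and 384 in uninduced replicates 1 and 2. Its percentile was 79.4 and 79.3 in the induced libraries, and 9.14 and 69.1 in the uninduced ones. The shift of 40.3 points therefore rested on uninduced replicate 1, and without that library it was 4.92 points, against 69.90 without uninduced replicate 2. The second shared region, at 56718907 to 56722042, scored 471 and 318 with induction and 280 and 198 without, and its ranks overlapped between the groups. The gained region between them, at 56716974 to 56718441, was weak, with scores of 89.4 and 69.8.

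Cebpe encodes C/EBPε, the factor that drives late granule genes. Its window (chromosome 14, 55.30 to 55.36 Mb) held 8 and 9 peaks in induced and 3 and 6 in uninduced cells. Peaks covered 19.1% and 18.5% of it after induction and 6.38% and 12.3% without it, a ratio of 2.02. The leading region, 3486 bp long at 55329134 to 55332619, was strong in every library, with scores of 1564 and 1099 with induction and 578 and 699 without. Its percentile ran from 84.1 to 89.5 over the 4 libraries, and its shift of 2.87 points was 1.91 without induced replicate 2 and turned to -0.10 without uninduced replicate 1 and to -1.18 in the merged lists. The other shared region, at 55319911 to 55321031, was weak in uninduced cells, with scores of 54.0 and 57.5, and stood at 180 and 119 in induced cells, a shift of 15.6 points.

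Beside that region lay the gained region at 55321484 to 55322611, which scored 216 and 208 in the induced libraries. The other gained region of the window, at 55348206 to 55349068, scored 66.3 and 57.9. Of the 10 regions, 4 (40%) were missing from uninduced replicate 1 alone, against 14.6% of all regions. The strongest of these, at 55304601 to 55306639, scored 319 and 383 in the induced libraries and 312 in uninduced replicate 2. Whether a peak was called there without induction thus differed between the uninduced replicates. One region, at 55357958 to 55358806, was found in uninduced replicate 1 alone, with a score of 115.

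Lcn2 encodes lipocalin 2, a protein of the secondary granule that binds bacterial siderophores. Its window (chromosome 2, 32.21 to 32.27 Mb) held 7 and 6 peaks in induced and 2 and 5 in uninduced cells. Peaks covered 14.2% and 13.0% of it after induction and 3.62% and 8.90% without it, a ratio of 2.17. The region at 32248098 to 32249335 scored 648 and 495 with induction and 135 and 408 without. The region at 32218091 to 32219561 scored 570 and 351 in induced and 183 and 344 in uninduced cells. For both, the ranks of the groups overlapped, with shifts of 6.95 and -4.59 points. A gained region at 32250230 to 32252172 followed the first of these, with scores of 314 and 299 and no peak in any uninduced list, merged list included. The second gained region, at 32235341 to 32236349, scored 133 and 78.3.

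S100a8 and S100a9 encode the subunits of calprotectin, and their window (chromosome 3, 90.45 to 90.52 Mb) had the most covered length after induction. Without induction the Elane and Prtn3 window was covered more, at a mean of 16.1% against 12.6%, and it also held more regions per 100 kb, 20.0 against 18.6. The S100a8 and S100a9 window held 14 and 13 peaks in the induced libraries and 8 in each uninduced library. Peaks covered 42.7% and 29.2% of it after induction and 12.6% and 12.5% without it, a ratio of 2.87. Of the 60-kb tiles with a region, 0.0526% were covered at least as much in the mean of the induced libraries and 1.05% in that of the uninduced ones. These shares were 0.492% and 0.304% for the Elane and Prtn3 window and 44.8% and 32.8% for the Mpo window. For Cebpe, Lcn2 and Ctsg they ran from 2.41% to 11.4%. In the S100a8 and S100a9 window the induced libraries differed. In replicate 1 a single peak of 6490 bp filled a stretch that replicate 2 split into separate peaks.

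The strongest region of all 6 windows lay here, at 90472169 to 90475287. It scored 3100 and 2976 with induction and 1221 and 1178 without. It stood at the percentiles of 98.9 and 99.5 in the induced libraries and 94.6 and 95.8 in the uninduced ones, so it was among the strongest shared regions of the series in both conditions. The value 3100 recurs among the highest peaks of each list, with 367 peaks in induced replicate 1 and 1417 in the merged induced list. Regions tied at that value share an averaged percentile, which limits the rank of this region in those lists. Its shift of 3.97 points was 2.05 without uninduced replicate 1 and -0.13 in the merged lists. No shift was obtained for it under the stricter overlap rule given below.

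Further shared regions of this window ranked higher in both induced libraries. The region at 90482165 to 90483411 scored 1010 and 719 in induced and 66.6 and 237 in uninduced cells, a shift of 46.2 points (17.41 without uninduced replicate 1). The region at 90459126 to 90465615 scored 1459 and 1091 after induction and 219 and 373 without it, a shift of 24.4 points (12.08 without uninduced replicate 1). For this region too the stricter overlap rule gave no shift. The region at 90490122 to 90491622 scored 1440 and 757 with induction and 449 and 461 without, with a smaller shift of 5.58 points. That shift was 2.40 without induced replicate 1, 3.16 without uninduced replicate 1 and 3.61 without uninduced replicate 2. The region at 90485350 to 90487695 scored 354 and 176 after induction and 112 and 165 without it, and had almost the same mean percentile, 34.0, in both groups.

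Lower ranks in the induced libraries were found at the first and the last shared region of the window. The region at 90498533 to 90500418 scored 233 and 123 in induced and 142 and 338 in uninduced cells, a shift of -31.5 points. It was -49.89 without uninduced replicate 1, -20.08 without uninduced replicate 2 and 6.85 in the merged lists, where a long induced peak spans it. The region at 90450887 to 90452135 was weak in all libraries, with scores from 89.9 to 139 and a shift of -9.66 points (-20.82 without uninduced replicate 1).

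The strongest gained region of the windows lay here too, at 90465777 to 90468781, with scores of 613 and 609 in the induced libraries. A gained region at 90495474 to 90498278 scored 557 and 242, and a weaker one at 90511522 to 90513066 scored 67.7 and 82.5. None of the 3 had a peak in the merged uninduced list. This window lies within the stretch of chromosome 3 from 85 to 120 Mb, where shared regions outside the window had a median shift of 15.57 points (306 regions) and 35.7% of regions were gained. Within the window the median shift was 3.97 points over 7 shared regions and 23.1% of regions were gained. The part of that stretch in the values of the window was not tested.

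**Figure D3:**
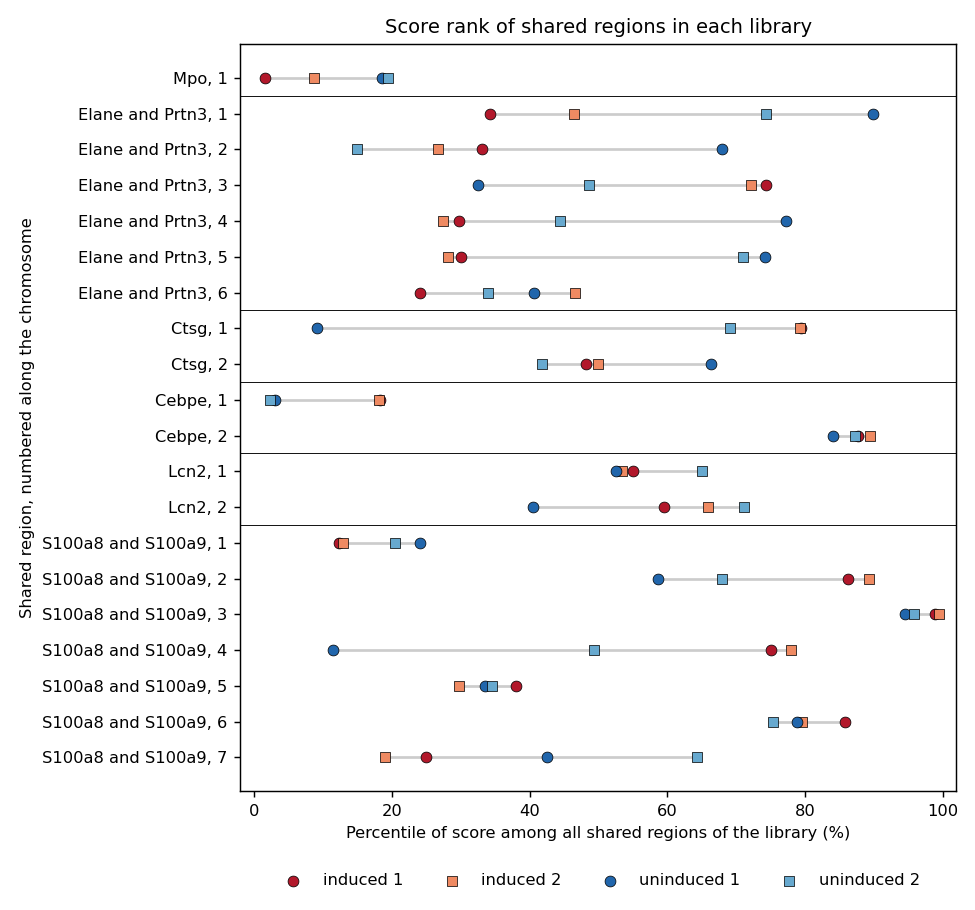
Percentile of the score (horizontal axis, in percent) of each of the 20 shared regions among all shared regions of the same library; 1 symbol per library, a grey line from the lowest to the highest, and regions numbered along the chromosome within each window. Regions 1, 4 and 5 of the Elane and Prtn3 window lie lower in both induced libraries, and region 3 of that window and regions 2 and 4 of the S100a8 and S100a9 window lie higher.

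Over all windows the shared regions did not move one way. Both induced percentiles lay above both uninduced ones in 8 of the 20 shared regions (40.0%), against 30.6% of all shared regions, and below them in 6 (30.0%), against 30.8%. The regions that ranked higher lay in the windows of S100a8 and S100a9 (4), Cebpe (2), Ctsg (1) and Elane with Prtn3 (1). Those that ranked lower lay in the windows of Elane with Prtn3 (3), S100a8 and S100a9 (2) and Mpo (1). Without the S100a8 and S100a9 window, 4 of 13 shared regions (30.8%) ranked higher and 4 (30.8%) lower, near the shares of all shared regions. In the stretch of chromosome 3 from 85 to 120 Mb, outside that window, 52.3% of 306 shared regions ranked higher and 12.4% lower. The median shift was -1.04 points over the 20 regions, against 0.22 over all shared regions, and its sign changed with the settings. Single pairs of an induced and an uninduced library gave medians of 0.78 to 2.99 points. By window the median ran from -21.95 points at Elane and Prtn3 (6 regions) to 17.63 at Ctsg (2 regions), and both values rested on uninduced replicate 1. Against that library the medians at Elane and Prtn3 were -39.58 and -42.43 for induced replicates 1 and 2, but against uninduced replicate 2 they were -12.34 and -2.61. At Ctsg they were 26.07 and 26.85 against uninduced replicate 1, and 8.41 and 9.19 against uninduced replicate 2. Against uninduced replicate 2 the single shared region at Mpo lay lowest of the 6 windows, at -17.83 and -10.80, and Ctsg was about level with Cebpe, at 8.24 and 8.97. Windows were not tested against each other, since regions of a window are not replicates.

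**Figure D4:**
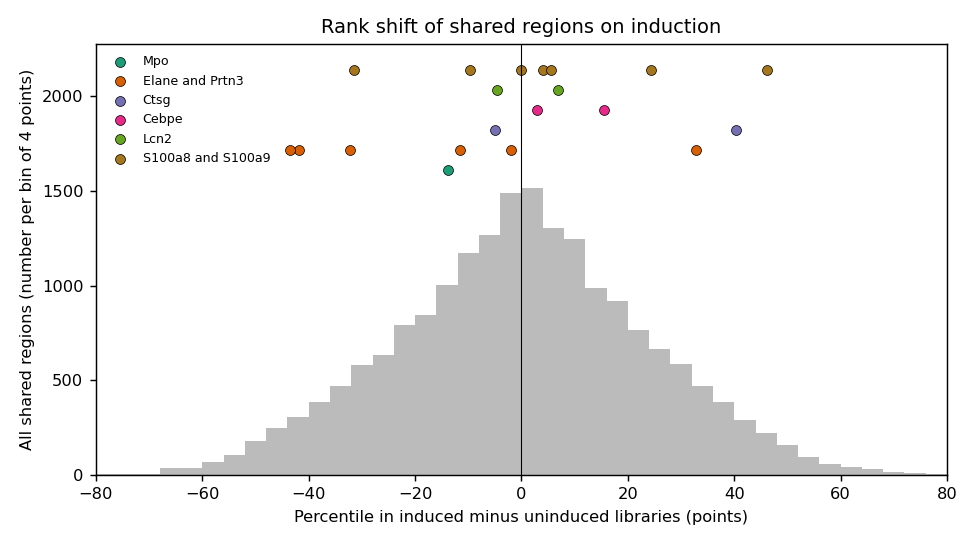
Rank shift (mean percentile of the induced minus that of the uninduced libraries, in points) of all 19391 shared regions as a histogram in grey, with the 20 regions of the gene windows as points above it, coloured by window; the height of the points has no meaning. The points spread over both sides of 0, from -43.6 at Elane and Prtn3 to 46.2 at S100a8 and S100a9.

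Peaks in the windows were wider and scored higher than the typical peak of their list. Their median width was 1240.0 and 1183 bp after induction, against 1002.5 and 965 bp in the whole lists, and 1110.0 and 1053 bp without it, against 943 and 895 bp. Their median score was 233 and 174 in the induced libraries, against 164 and 140 in the whole lists, and 135 and 197 in the uninduced libraries, against 105 and 115. These are descriptions with no test.

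The edges of the windows were set by position, and binding went on beyond some of them. The nearest region outside lay 0.46 kb before and 0.26 kb after the Elane and Prtn3 window, and both were weak, with scores of at most 89.8. After the S100a8 and S100a9 window no region followed for 249.29 kb. The nearest regions around the Mpo window lay 15.55 kb before and 26.33 kb after it, and the latter was shared, with scores of 530 and 329 after induction and 146 and 162 without it.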

How the data were processed

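PU.1 ChIP-seq peak lists of 2 induced and 2 uninduced libraries, precipitated from 300 ug of chromatin each per the labels' protocols, and 1 merged list per condition were used. Input libraries are not analysed here. Trim Galore, Bowtie, MACS 1.4.1 and mm9 are named in the submitters' processing notes. The deposited score is 1 value per peak, at least 50 in each list, on a scale not given in the sources used here. The control used for peak calling and how lists were merged are not given either, and depth is unknown. An absent peak means only that none was called.

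Positions are counted from 1. Lists were analysed with Python 3.11.15, NumPy 2.4.6 and pandas 2.3.3, and figures drawn with matplotlib 3.10.9. Libraries were grouped by title. Peaks overlapping by at least 1 bp were joined over the whole genome, and the code was tested on simulated lists. Libraries were compared with exact two-sided permutation tests. Regions given in full are every shared region, the leading region of each window, and gained or lost regions with both scores at least 100; the weaker gained regions are given as well. The alternatives tried were an overlap of 50% of each interval, windows widened by 20 kb, only peaks that score 100 or more, the top 31960 peaks of every list, the merged lists, each library left out in turn and a replicate block; leaving out the S100a8 and S100a9 window and limiting scores to 3100 were added after seeing the data. Members, windows and motifs were chosen with earlier results of these data known. That each window holds its genes was not checked against an mm9 annotation. Promoters and gene order are from RefSeq (GRCm38.p6). Counts at other granule genes need an mm9 annotation and were not run.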

Additional observations from a re-analysis of the deposited data

How the results depend on the processing

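The excess of peaks and of covered length in the induced libraries kept its direction under all 14 settings, but many of them could not have reversed it. An overlap of 50% of both intervals, the limit on scores and the replicate block with both numbers returned 18 peaks and 35788 bp unchanged. Leaving out 1 library or using 1 replicate number alone could not reverse the excess, since the groups did not overlap. The excess of 18 peaks fell to 4.5 with lists of equal length, which draws the lists together by construction, and that of 35788 bp to 21651 bp. Gained regions, 13 in the main analysis, numbered 6 with lists of equal length, 21 with windows widened by 20 kb, 21 in the merged lists and 13 to 21 when 1 library was left out, the most without uninduced replicate 2. Shares over all regions were not calculated for settings that change the lists, the libraries or the overlap. Gained, shared and lost counts under those settings therefore have no background beside them. Shared regions numbered 13 without the S100a8 and S100a9 window. Lost regions, 0 in the main analysis, numbered 3 with an overlap of 50% of both intervals, 2 with lists of equal length, 2 in the merged lists and 0 to 2 when 1 library was left out, with 2 without uninduced replicate 2. The 3 overlapped much wider induced peaks at Elane and Prtn3 and at S100a8 and S100a9. They counted as lost because those induced peaks were too wide for the 50% rule, not because an induced peak was absent. Under the same rule shared regions numbered 16, against 20 in the main analysis. No rank shift was then obtained for the regions starting at 79345193, 90459126 and 90472169. The median rank shift of -1.04 points was 5.99 with scores of at least 100, 0.85 with widened windows, -9.89 with lists of equal length, -4.59 without the S100a8 and S100a9 window and -1.66 to 1.32 when 1 library was left out, so it has no settled sign; the cause was not tested. Of the 14 shared regions whose ranks did not overlap between the groups, 4 changed sign under some setting: to 13.91 at Elane and Prtn3 (start 79348402), -1.18 at Cebpe (start 55329134), -0.13 (start 90472169) and 6.85 (start 90498533) at S100a8 and S100a9 in the merged lists, while the same Cebpe region ran from -0.10 (without uninduced replicate 1) to 4.15 when 1 library was left out. These 14 were chosen because their ranks did not overlap. Leaving out 1 library or using 1 replicate number alone could therefore change a sign only through a new ranking, and a kept sign there says little. Replicates of the groups share only a number: deviations of same-numbered libraries over shared regions had a correlation of -0.03. With the replicate block the excess was 18 peaks (exact p = 0.5, the smallest for 2 pairs). Within the replicate block, number 1 alone gave 26 gained and 2 lost regions and a shift of 3.11, and number 2 alone gave 16 gained and 1 lost and a shift of 0.46. Depth is unknown, so how far it limits the absent peaks cannot be stated.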

Other observations

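Each merged list held 2 peaks in the windows that were found in neither replicate of its condition, of 44 (induced) and 29 (uninduced). Such peaks were not counted over the whole merged lists, so whether this is usual cannot be stated. In the merged induced list they scored 68.6, at chromosome 10, 79332509 to 79333499 (Elane and Prtn3), and 52.1, at chromosome 3, 90501290 to 90502406 (S100a8 and S100a9). In the merged uninduced list they scored 60.2, at chromosome 10, 79351961 to 79353354 (Elane and Prtn3), and 50.6, at chromosome 14, 56723678 to 56724669 (Ctsg). The widest merged induced peaks ran over 8039 bp in the Elane and Prtn3 window, with a score of 3047, and over 7069 bp in the S100a8 and S100a9 window, with a score of 3100.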
